A study of Mus musculus with 9 samples.

Results

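The Ikaros family genes are Ikzf1 (Ikaros), Ikzf2 (Helios), Ikzf3 (Aiolos), Ikzf4 (Eos) and Ikzf5 (Pegasus), 5 of the 43629 genes in the deposited table, and they were chosen by name as the mouse members of the family. Their RNA was read in bone marrow cells selected for c-Kit, the stem cell factor receptor of blood stem and progenitor cells, from C57BL/6 mice. All mice, controls included, were treated with pIpC, a double-stranded RNA analogue commonly used to induce interferon or an interferon-driven Cre. Of 9 libraries of total RNA, 3 came from WT mice, 3 from Cbfb+/mDE mice (mDE below) and 3 from Cbfb+/MYH11 mice (MYH11 below). The MYH11 allele encodes CBFβ-SMMHC, the leukaemia fusion that joins CBFβ, a partner of the RUNX factors, to part of a smooth muscle myosin heavy chain. The mDE allele encodes that fusion with changes in the domain at its C-terminal end through which it multimerizes, and both alleles are carried beside a normal Cbfb gene. Ages, and whether each library is 1 animal, are not given in the sources used here. The p-values therefore measure the spread between libraries alone, which may be technical.

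Ikaros family proteins bind DNA through a group of zinc fingers near the N terminus and pair with each other through further zinc fingers at the C terminus, so the members can form mixed complexes. Ikaros recruits the NuRD chromatin remodelling complex and other corepressors, and is needed for lymphocyte development and for the priming of lymphoid genes in multipotent progenitors. Aiolos is known from B cells, Helios from regulatory T cells and early progenitors, and Eos from regulatory T cells, where it acts as a corepressor of Foxp3. Pegasus is the most distant member and recognises other DNA sequences.

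The coding sequences show how alike the members are, which bears on whether their reads can be kept apart. The principal annotated transcripts (GENCODE M21, GRCm38) encode 515 codons in Ikzf1, 526 in Ikzf2, 507 in Ikzf3, 586 in Ikzf4 and 419 in Ikzf5. A search of the translated frames for the cysteine and histidine spacing of this type of finger found 6 fingers in each of Ikzf1, Ikzf2, Ikzf3 and Ikzf4 and 5 in Ikzf5. The coding bases of the second finger, one of the DNA-binding fingers, are printed from the first cysteine codon to the last histidine codon, and capitals mark bases that differ from Ikzf1.
Ikzf1: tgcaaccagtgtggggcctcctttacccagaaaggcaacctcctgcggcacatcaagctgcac
Ikzf2: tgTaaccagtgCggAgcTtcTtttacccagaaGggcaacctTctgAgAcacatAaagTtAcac
Ikzf3: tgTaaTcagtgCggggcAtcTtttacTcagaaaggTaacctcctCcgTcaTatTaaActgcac
Ikzf4: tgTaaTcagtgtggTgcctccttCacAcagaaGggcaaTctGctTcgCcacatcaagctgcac
Ikzf5: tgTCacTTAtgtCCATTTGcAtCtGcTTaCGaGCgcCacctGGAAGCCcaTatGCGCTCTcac

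These 63 bases lie in exon 5 of Ikzf1 (chr11:11754024-11754086, plus strand), exon 5 of Ikzf2 (chr1:69570581-69570643, minus strand), exon 5 of Ikzf3 (chr11:98488940-98489002, minus strand), exon 5 of Ikzf4 (chr10:128640229-128640291, minus strand) and exon 4 of Ikzf5 (chr7:131392501-131392563, minus strand). Against Ikzf1, Ikzf2 differs at 12 of the 63 bases, 10 of them at the last base of a codon. Ikzf3 differs at 12 and Ikzf4 at 10, all of them at last bases. Ikzf5 differs at 37, of which 15 are last bases. Over the whole annotated protein-coding transcripts, the longest exact run that any pair of members shared was 32 bases, between Ikzf2 and Ikzf4, and the shortest of these longest runs was 15 bases, between Ikzf5 and each of Ikzf1, Ikzf2 and Ikzf4. Read length is not given in the sources used here.

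**Figure D1:**
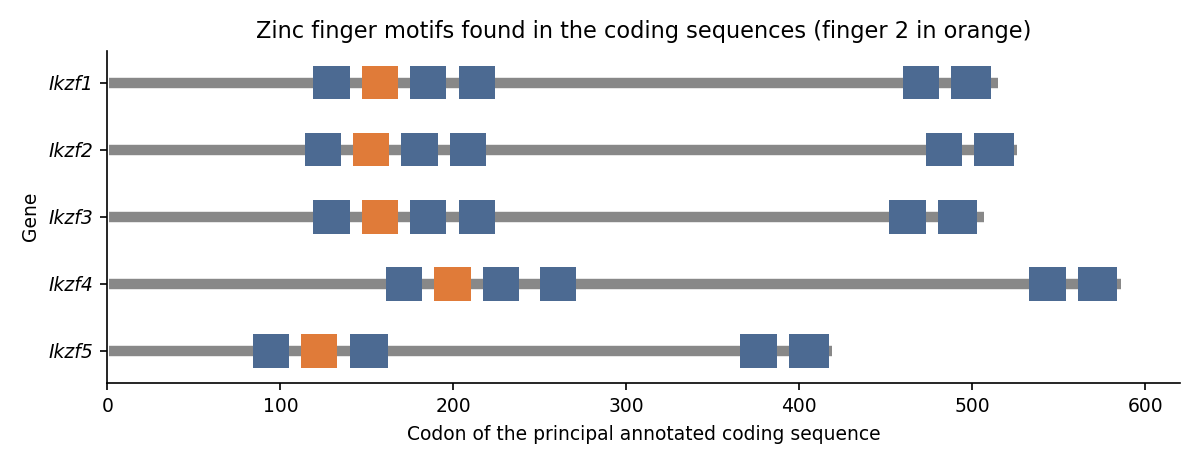
Positions of the zinc finger motifs found in the principal coding sequence of each Ikaros family gene, with the codon number on the x axis, 1 line per gene drawn to its full length, boxes for fingers and finger 2 in orange. Ikzf1 to Ikzf4 have 4 fingers in the first part and 2 at the C-terminal end, and the shorter Ikzf5, of 419 codons, has 3 and 2.

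The libraries held 39300366 to 50073097 reads. The labels were checked on the genes joined in the fusion. For Myh11 the WT libraries held 4.70 to 8.64 normalised reads (the deposited unit, reads scaled by a size factor), the mDE libraries 28.7 to 43.8 and the MYH11 libraries 176 to 219. Cbfb stood at 6535 to 7136 in WT, 4941 to 5782 in mDE and 6349 to 6910 in MYH11, so every mDE library lay below all others. Runx1, its binding partner, averaged 2935 in WT, 3580 in mDE and 6575 in MYH11. Kit, the gene of the selected receptor, stood at 6987 to 7797 in WT and mDE and at 3226 to 3868 in MYH11. Genes of late neutrophils took 10.2% to 14.3% of reads in WT and mDE and 0.420% to 1.91% in MYH11, and all 12 genes of that list, led by S100a9, fell in MYH11. Genes of mast cells and basophils took 0.0590% to 0.0703% of reads in WT and mDE and 0.279% to 0.454% in MYH11, led by Il1rl1, with 9 of 12 tested members higher and 3 lower in MYH11, and with Tpsab1 at 0 in every library. Of all genes tested, 32% were called higher and 27.8% lower in MYH11 against WT at a limma adjusted p under 0.05. In such bulk samples, fewer cells of a type and less RNA per cell cannot be told apart.

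The first question was what the full-length fusion allele does to the family. In MYH11, Ikzf1 and Ikzf3 fell while Ikzf2 and Ikzf4 rose, Ikzf2 by 12.3-fold and Ikzf4 from at most 9 reads in a WT library to at least 262. Ikzf5 was 1.11-fold higher, a call that depended on the processing. Of the 5 members, 3 were called higher and 2 lower by limma-trend at an adjusted p under 0.05, with all 5 past the filter on low counts. Ikzf4 passed that filter only through the MYH11 libraries, where it is high, and failed it when WT and mDE were fitted alone. With no filter its log2 difference was 5.44 (limma adjusted p = 2.49e-06). Over all 15948 genes tested, 59.8% were called in this comparison, 32% higher and 27.8% lower, and the number of members called is to be read against that background. The sizes of the differences ranged widely. Of all genes tested, 97.8% had a log2 difference at or below that of Ikzf2 and 99.4% at or below that of Ikzf4, whereas the values were 12.4% for Ikzf1, 9.10% for Ikzf3 and 58.3% for Ikzf5.

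Ikzf1 (ENSMUSG00000018654, chromosome 11, 11685003 to 11772926, GRCm38) encodes Ikaros, the founding member. It had 22302, 22869 and 22521 normalised reads in the WT libraries, 23235, 22553 and 24873 in mDE, and 13013, 14589 and 12110 in MYH11. Each MYH11 library lay below all 6 others, and the WT and mDE libraries overlapped. Groups did not overlap in 68.7% of all genes in MYH11 against WT. Ikzf1 fell 1.70-fold, from 22564 ± 286 in WT to 13237 ± 1255 in MYH11 (SD, n = 3), a log2 difference of -0.77 (SE 0.07, limma adjusted p = 1.98e-05). The call held in all 21 alternatives, with log2 differences from -0.87 to -0.71. The values sum over isoforms, so the long DNA-binding forms of Ikaros and the short forms that lack fingers, which act against them, were not separated.

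Ikzf2 (ENSMUSG00000025997, chromosome 1, 69531214 to 69687245) encodes Helios. It had 260, 191 and 190 normalised reads in WT, 340, 291 and 287 in mDE, and 2496, 2184 and 3201 in MYH11. The MYH11 libraries were all several times above the other 6, and the spread among them reached 1.47-fold. Ikzf2 rose from 214 ± 39.8 to 2627 ± 521 (log2 difference 3.61, SE 0.17, limma adjusted p = 3.85e-07), and the 21 alternatives gave 3.46 to 3.76. An antisense gene, Gm29114, shares 144 exonic bases with Ikzf2 and had 6.82 to 9.94 normalised reads in MYH11 and at most 2 reads in any other library.

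Ikzf3 (ENSMUSG00000018168, chromosome 11, 98464902 to 98546031) encodes Aiolos, which lies on the same chromosome as Ikzf1 but far from it. It had 492, 594 and 587 normalised reads in WT, 341, 432 and 468 in mDE, and 225, 404 and 225 in MYH11. Both knock-in groups lay below every WT library, and replicate 2 of MYH11 fell within the mDE range. Ikzf3 fell 1.96-fold in MYH11, from 558 ± 57.0 to 285 ± 103 (log2 difference -1.02, SE 0.23, limma adjusted p = 0.0035). The call held in all 21 alternatives, with log2 differences from -1.30 to -0.88. Markers of T, NK and innate lymphoid cells, which can express Ikzf3, took 0.0224% to 0.0238% of reads in WT, 0.0164% to 0.0186% in mDE and 0.0150% to 0.0188% in MYH11. The most abundant of them, Nkg7, averaged 8129 in WT, 5490 in mDE and 2076 in MYH11 (normalised reads). The members did not share a direction: of 15 tested, 5 rose and 6 fell in MYH11, with a median log2 difference of 0.54, and in mDE 1 rose and none fell. None of these markers was at 0 in all libraries of a genotype. Against WT, 59.8% of all genes were called in MYH11 (32% higher and 27.8% lower) and 1.24% in mDE. B cell markers took 0.0199% to 0.0231% in WT, 0.0162% to 0.0258% in mDE and 0.0182% to 0.0275% in MYH11, led by Cd79b. None was at 0. In MYH11 1 of 14 was higher, 5 were lower and 8 were not called. The 5 that fell were Ms4a1 (18.5-fold), Blk (13.7-fold), Cr2 (9.83-fold), Fcer2a (9.58-fold) and Cd22 (2.10-fold), and Ebf1 rose 2.42-fold. The summed share does not show these changes. The part of T, NK, innate lymphoid and B cells in the Ikzf3 values was not tested.

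Ikzf4 (ENSMUSG00000002578, chromosome 10, 128630843 to 128645991) encodes Eos. It was near the limit of detection in WT, with 4, 9 and 3 reads, and in mDE, with 2, 6 and 3 reads. In MYH11 it had 314, 262 and 308 reads. On the normalised scale the MYH11 libraries stood at 284, 223 and 273 and the other 6 libraries at 2.20 to 8.64. Ikzf4 rose from 5.34 ± 2.86 in WT to 260.0 ± 32.2 in MYH11 (log2 difference 5.44, SE 0.36, limma adjusted p = 2.56e-06). From the 884 reads of the MYH11 libraries and the 16 of the WT libraries, the ratio was 47.5, with an exact 95% interval of 29.1 to 83.5 that covers counting error only. The 21 alternatives gave log2 differences of 4.86 to 5.79, the lowest with a pseudocount of 4. The neighbouring lincRNA gene Gm26876, on the other strand and sharing 37 exonic bases with Ikzf4, had no read in WT and mDE, which allows up to 3 reads a library, and 8.13, 14.5 and 22.2 normalised reads in the MYH11 libraries.

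Ikzf5 (ENSMUSG00000040167, chromosome 7, 131388652 to 131410521) encodes Pegasus. It had 1551, 1487 and 1599 normalised reads in WT, 1590, 1544 and 1509 in mDE, and 1751, 1648 and 1731 in MYH11. The MYH11 libraries lay just above all others. Ikzf5 went from 1545 ± 56.1 in WT to 1710 ± 54.7 in MYH11 (log2 difference 0.15, SE 0.05, limma adjusted p = 0.0362). The call was lost in 11 of 21 alternatives, among them TMM scaling (log2 difference 0.10, limma adjusted p = 0.161) and edgeR on recovered reads (edgeR adjusted p = 0.0631), and without WT replicate 1, WT replicate 2, MYH11 replicate 1 or MYH11 replicate 3 (limma adjusted p = 0.0735, 0.127, 0.11 and 0.107). Of the exonic bases of Ikzf5, 81.3% overlap those of Pstk on the opposite strand, and strand is not given in the sources used here, so reads of this pair may not be told apart. Whether reads from the overlap were given to either gene or left out of the counts is not stated, which makes the level, rank and family share of Ikzf5 uncertain. Pstk, a selenocysteine synthesis kinase, rose 1.36-fold in MYH11 (limma adjusted p = 0.00528); its part in the Ikzf5 value was not tested.

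**Figure D2:**
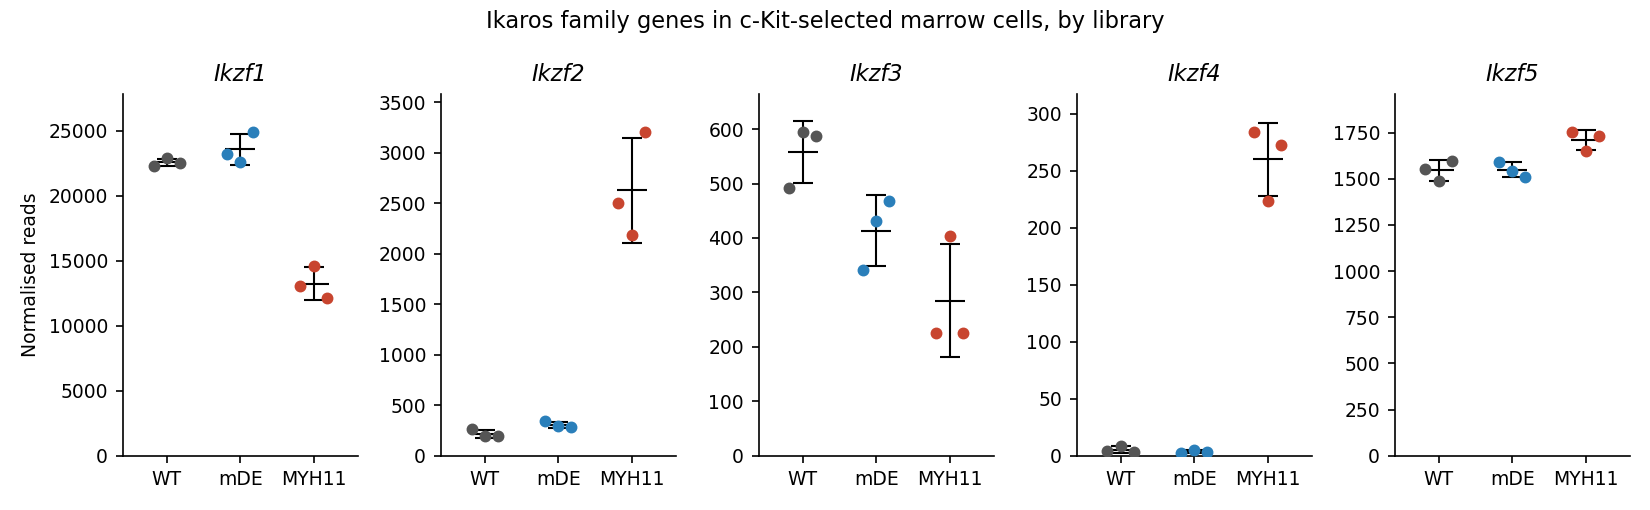
Normalised reads (y axis, from 0, with its own scale in each panel) of the 5 Ikaros family genes in 3 WT, 3 mDE and 3 MYH11 libraries, with points for libraries and bars for mean ± SD. Ikzf1 and Ikzf3 are lowest and Ikzf2 and Ikzf4 highest in MYH11, where Ikzf4 reaches 223 to 284 against at most 8.64 elsewhere.

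The MYH11 libraries varied among themselves in a shared way. Replicate 2 had the highest Ikzf1 and Ikzf3 and the lowest Ikzf2 and Ikzf4 of the 3 libraries. It also had the largest share of late neutrophil reads, 1.91% against 0.946% and 0.420% in replicates 1 and 3, and the smallest share of mast cell and basophil reads, 0.279% against 0.427% and 0.454%. The part of these cells in the member values was not tested. Without replicate 2 the log2 difference from WT was 3.74 for Ikzf2, -0.85 for Ikzf1 and -1.30 for Ikzf3.

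The second question was what the fusion with the altered multimerization domain does to the family. In mDE no member was called, by limma, edgeR, DESeq2 or limma-voom. At an unadjusted limma p under 0.05 there was 1 member, Ikzf2. With limma, 1.24% of all genes were called (198 genes, 0.821% higher and 0.42% lower), 19.8% had an unadjusted p under 0.05 and 26.1% had groups that did not overlap. The background differed between the tools: edgeR called 1.18% of all genes, DESeq2 5.92% and limma-voom 0.909%. The 131 higher and 67 lower limma calls became 110 and 89 with upper-quartile scaling. That count of 198 rested on the libraries. It was 89, 32 and 39 without WT replicates 1, 2 and 3. It was 207, 123 and 90 without mDE replicates 1, 2 and 3. Without MYH11 replicates 1, 2 and 3 the count was 86, 262 and 107.

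Ikzf2 was 1.43-fold higher in mDE than in WT, at 306 ± 29.4 against 214 ± 39.8, and all 3 mDE libraries lay above all 3 WT libraries. The log2 difference was 0.53, with a 95% interval of 0.15 to 0.90 (limma adjusted p = 0.141), and the adjusted p ranged from 0.064 to 0.329 over the alternatives. Ikzf3 stood at 414 ± 65.8 in mDE, again with no overlap with WT, a log2 difference of -0.44 (interval -0.95 to 0.07, limma adjusted p = 0.316). These were the 2 members whose groups did not overlap. Ikzf1 was at 23553 ± 1193 in mDE, with a log2 difference of 0.06 and an interval of -0.10 to 0.23. Ikzf5, at 1548 ± 40.2, had 0.00 with an interval of -0.12 to 0.12, and its sign changed with the scaling. For Ikzf4 the 11 reads in mDE and 16 in WT gave a ratio of 0.687 with an exact 95% counting interval of 0.288 to 1.58, and a difference within that interval was not detectable at this depth.

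The comparison of MYH11 with mDE sets the knock-in genotypes against each other. These groups also differed in the reads counted for Myh11, at 196 ± 21.3 normalised reads in MYH11 and 37.9 ± 8.12 in mDE. How well these reads measure the RNA of either fusion allele was not tested. Late neutrophil genes took 0.420% to 1.91% of reads in MYH11 and 11.4% to 14.3% in mDE. The part of either in the member differences was not tested. Against mDE, MYH11 had higher Ikzf2 (8.60-fold, log2 difference 3.09, SE 0.17, limma adjusted p = 1.05e-06) and higher Ikzf4 (log2 difference 5.87, SE 0.36, limma adjusted p = 2.15e-06). Ikzf1 was 1.78-fold lower in MYH11 than in mDE (log2 difference -0.83, SE 0.07, limma adjusted p = 1.42e-05). In this comparison 3 members were called higher and 1 lower, beside 55.6% of all genes (29.6% higher and 26% lower), and 62.2% of all genes had groups that did not overlap. Ikzf3 missed the threshold, with a log2 difference of -0.58 and an interval of -1.09 to -0.07 (limma adjusted p = 0.0519). Without MYH11 replicate 2 the Ikzf3 difference was -0.86 (limma adjusted p = 0.00138), and without mDE replicate 1 it was -0.72 (limma adjusted p = 0.0371). Ikzf5 was 1.11-fold higher (limma adjusted p = 0.0414), and that call was lost in 13 of 21 alternatives, including without any of WT replicates 1, 2 and 3, mDE replicates 2 and 3 and MYH11 replicates 1 and 3 (limma adjusted p from 0.0503 to 0.124). The comparisons of MYH11 with WT and with mDE share the MYH11 libraries and are not independent.

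**Figure D3:**
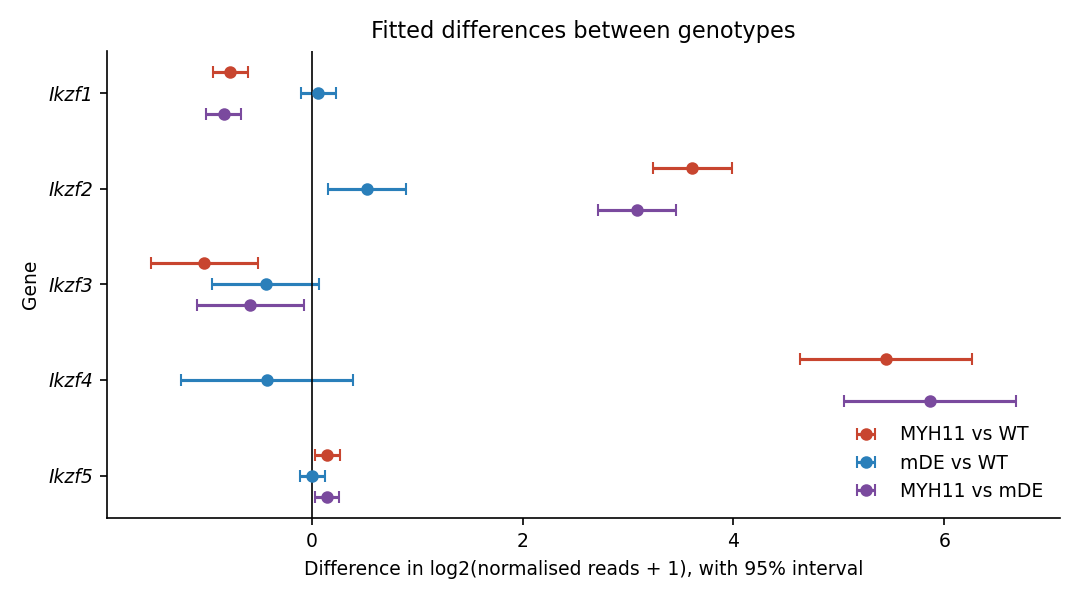
Fitted differences in log2(normalised reads + 1) (x axis) for each Ikaros family gene (y axis) in the 3 comparisons, as points with 95% intervals from the limma fit of 9 libraries. Ikzf2 and Ikzf4 lie far to the right in both MYH11 comparisons (3.61 and 5.44 against WT), Ikzf1 lies to the left in both, and in mDE against WT the Ikzf2 interval is the one that does not reach 0.

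To compare levels between the genes, normalised reads were divided by the merged exon length of each gene, from 5721 bases in Ikzf5 to 11613 in Ikzf2. In WT the order per kb was Ikzf1 (3906 ± 49.4), Ikzf5 (270 ± 9.81), Ikzf3 (63.7 ± 6.51), Ikzf2 (18.4 ± 3.43) and Ikzf4 (0.891 ± 0.477). In mDE the order was the same, and neighbours did not overlap in either genotype. In MYH11 the order per kb was Ikzf1 (2291 ± 217), Ikzf5 (299 ± 9.55), Ikzf2 (226 ± 44.8), Ikzf4 (43.4 ± 5.38) and Ikzf3 (32.5 ± 11.8). Ikzf4 and Ikzf3 overlapped there, at 37.2 to 47.3 and 25.7 to 46.2 normalised reads per kb, while Ikzf5 and Ikzf2 did not overlap. This order depends on the division by length. In normalised reads Ikzf2 stood above Ikzf5 in every MYH11 library (2627 ± 521 against 1710 ± 54.7). Ikzf3 averaged above Ikzf4 in those units (285 ± 103 against 260.0 ± 32.2).

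The summed family level per kb was 4259 ± 46.7 in WT, 4422 ± 205 in mDE and 2892 ± 174 in MYH11, which is 67.9% of WT. Ikzf1 made up 91.47% to 91.97% of that sum in the WT libraries, 91.88% to 92.63% in mDE and 76.3% to 81.9% in MYH11. The Ikzf2 share was 0.382% to 0.531% in WT, 0.531% to 0.669% in mDE and 6.10% to 10.04% in MYH11. No MYH11 library overlapped another genotype for either share. These shares do not depend on the size factors. The Ikzf2 shares of WT and mDE did not overlap either, at most 0.5308% in WT and at least 0.5312% in mDE. In exact two-sided permutation tests both MYH11 shares gave p = 0.1 against WT (0.15 after adjustment over 15 tests). This is the smallest p that 3 against 3 libraries allow. The Ikzf2 and Ikzf3 shares in mDE against WT gave the same permutation p, so it is not particular to MYH11.

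Within a library, Ikzf1 stood 173 to 241 times above Ikzf2 per kb in WT, 138 to 174 times in mDE and 7.61 to 13.4 times in MYH11. The WT and mDE ranges of this ratio overlapped. Ikzf2 stood 11.4 to 34.7 times above Ikzf4 in WT, 27.8 to 79.5 times in mDE and 4.54 to 6.05 times in MYH11, and the MYH11 range lay below the others. The WT and mDE ratios rest on 2 to 9 reads of Ikzf4 in each library.

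**Figure D4:**
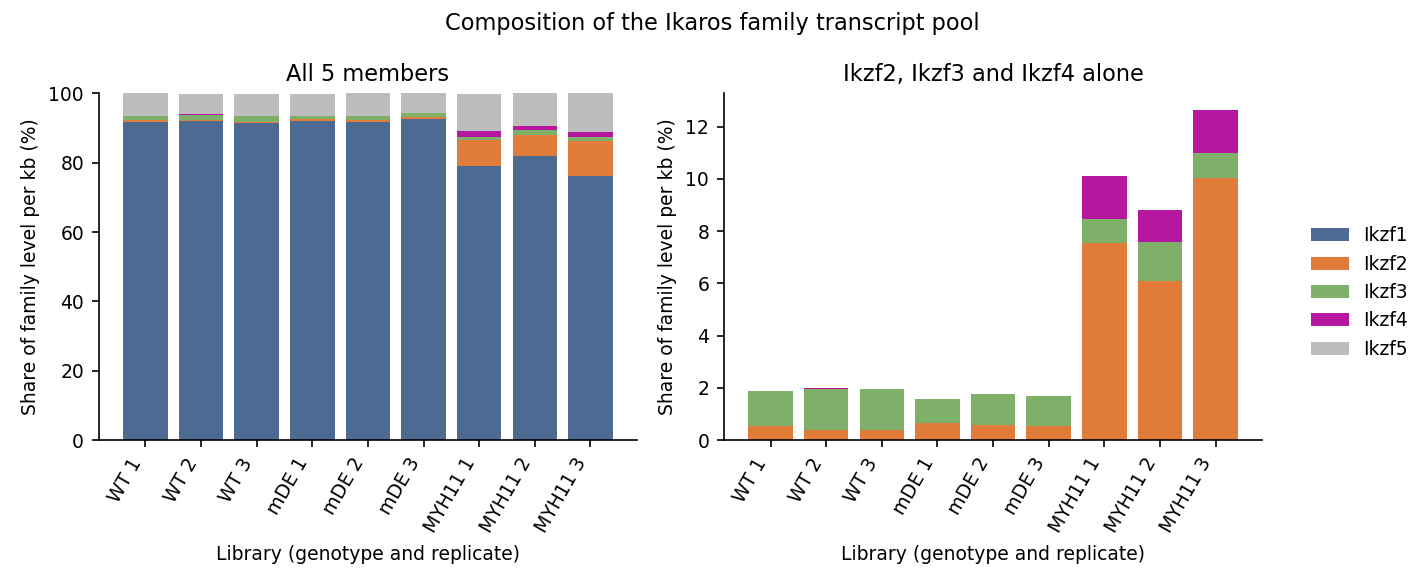
Share of the summed Ikaros family level per kb (y axis, %) taken by each gene in each of 9 libraries (x axis), for all 5 genes on the left and for Ikzf2, Ikzf3 and Ikzf4 on a wider scale on the right. Ikzf1 fills over 91% of every WT and mDE bar and 76.3% to 81.9% of the MYH11 bars, where Ikzf2, Ikzf5 and Ikzf4 take up more.

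The genes whose pattern was most like that of the rising members were found by the root mean square difference of log2(normalised reads + 1), each gene centred on its WT mean, over the 9 libraries and 12945 named genes. For Ikzf2 these were Pros1, the anticoagulant protein S (0.17), Fam174b (0.19) and P2rx7, an ATP-gated ion channel (0.20). Pros1 rose from 202 ± 28.7 normalised reads in WT to 2571 ± 405 in MYH11, with 329 ± 18.2 in mDE, and P2rx7 from 277 ± 25.5 to 3489 ± 360, with 394 ± 49.2 in mDE. For Ikzf4 the nearest gene was Cpne7, a copine (0.32), at 9.97 ± 4.27 in WT, 7.09 ± 1.38 in mDE and 338 ± 32.4 in MYH11. The other nearest genes were Fgf2os (0.46) and n-R5s27 (0.47), which had no read in WT and mDE and averaged 49.1 and 37.8 in MYH11. The remaining members changed less than 2-fold between group means, and no such genes were sought for them.

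Partners and regulators of Ikaros were read from gene lists. The NuRD complex, which Ikaros and Helios recruit, went both ways in MYH11. Of its 13 genes 4 rose and 5 fell, against 59.8% called of all genes, with a median log2 difference of -0.02 where all genes had 0.02. Chd3, a helicase subunit, rose 4.11-fold, from 1224 ± 116 to 5032 ± 200 (limma adjusted p = 3.31e-07), and Mta3 rose 1.93-fold (limma adjusted p = 5.12e-06). Mbd2, a methyl-CpG binding subunit, fell 1.43-fold (limma adjusted p = 1.3e-05). Chd4, the Mi-2β helicase best known as the partner of Ikaros, stood at 20876 in MYH11 and 20106 in WT and did not pass the test (limma adjusted p = 0.418).

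Among 12 other corepressor and remodeller genes 4 rose and 2 fell in MYH11 (median -0.02), beside 59.8% called of all genes. Ctbp2, a corepressor that binds Ikaros family members, fell 1.46-fold (limma adjusted p = 0.000165). Smarca4, the BRG1 ATPase, and Smarcd1, both of the SWI/SNF complex, rose 1.25-fold and 1.23-fold (limma adjusted p = 0.00172 and 0.00098).

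All 5 genes of the CRL4-CRBN ubiquitin ligase were called in MYH11, 3 higher and 2 lower, where 59.8% of all genes were called. In human cells this ligase, when bound by thalidomide analogues, degrades Ikaros and Aiolos. Crbn, its substrate receptor, rose 1.44-fold from 1319 ± 53.9 to 1901 ± 47.0 (limma adjusted p = 2.31e-05) and Cul4b rose 1.23-fold, while the alternative scaffold Cul4a fell 1.51-fold, from 5524 ± 326 to 3654 ± 86.4 (limma adjusted p = 8.96e-05).

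Of 7 tested genes of kinases and phosphatases that act on Ikaros, 5 fell and 1 rose in MYH11 (median -0.27), where 27.8% of all genes fell and 32% rose. Casein kinase 2 phosphorylates Ikaros and weakens its DNA binding, and protein phosphatase 1 reverses this. Ppp1cb, a catalytic subunit of that phosphatase, fell 1.78-fold from 27157 ± 1084 to 15261 ± 927, Csnk2b, the regulatory subunit of the kinase, 1.43-fold, and Csnk2a1, a catalytic subunit, 1.20-fold (limma adjusted p = 6.39e-06, 4.33e-05 and 0.000558). Ppp1ca, the other gene of the list, was not tested, as it is listed at no more than 8.13 normalised reads in any library. Whether reads of Ppp1ca were left out of the deposited counts is not stated, so this value may not reflect its expression.

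The list of Ikaros-regulated genes holds genes that Ikaros raises and genes that it lowers, so its members have no common direction to begin with. Of 21, 11 rose and 4 fell in MYH11, with a median log2 difference of 0.59, where 59.8% of all genes were called, 32% higher and 27.8% lower. Blnk, an adaptor of B cell receptor signalling, rose 7.21-fold, from 690 ± 72.3 to 4970 ± 1177, and Flt3, a receptor of early lymphoid and myeloid progenitors, rose 2.99-fold. Ccnd3, cyclin D3, fell 2.42-fold, from 21371 ± 1540 to 8835 ± 351 (limma adjusted p = 1.03e-05, 2.86e-05 and 1.53e-06). The list shares 10 genes with the marker lists, 6 of them with B cells. Plasmacytoid dendritic cell markers, led by Irf8 and with 1 gene in the list, took 0.0154% to 0.0210% of reads in WT, 0.0216% to 0.0228% in mDE and 0.0321% to 0.0390% in MYH11, with 7 of 9 tested genes higher and 2 lower in MYH11, 2 higher and none lower in mDE, and none at 0. Their part in these values was not tested.

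In mDE none of the 37 tested genes of the first 4 lists was called, at medians from -0.07 to -0.01, where all genes had 0.01. Of the 21 Ikaros-regulated genes 2 were called, both higher, beside 1.24% of all genes called. They were Dntt, the terminal transferase that adds bases to antigen receptor joints, which rose 2.46-fold from 1304 ± 408 to 3214 ± 573 (limma adjusted p = 0.0308), and Flt3, which rose 2.07-fold from 666 ± 123 to 1382 ± 251 (limma adjusted p = 0.022). Dntt had a like level in MYH11, where it was 2.50-fold above WT (limma adjusted p = 0.000662). Markers of stem and multipotent progenitors, led by Kit and with Flt3 among them, took 0.0262% to 0.0312% of reads in WT, 0.0300% to 0.0335% in mDE and 0.0359% to 0.0436% in MYH11, with none at 0. In mDE 1 of 12 was called, Flt3 itself, and 11 of 12 had a positive difference, with a median log2 difference of 0.73. In MYH11 8 rose and 2 fell, where 32% of all genes rose and 27.8% fell. Kit, the most abundant marker, fell in MYH11 by 1.09 on the log2 scale (limma adjusted p = 2.06e-06). The plasmacytoid dendritic cell markers called higher in mDE, Siglech and Cox6a2, rose 3.35-fold and 2.94-fold (limma adjusted p = 0.0154 and 0.0303). Megakaryocyte markers, led by Itgb3, took 0.0137% to 0.0166% in WT, 0.0130% to 0.0204% in mDE and 0.0215% to 0.0317% in MYH11, with 4 of 12 tested members higher and 5 lower in MYH11 and Gp6 at 0 there. The part of these cells was not tested.

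**Figure D5:**
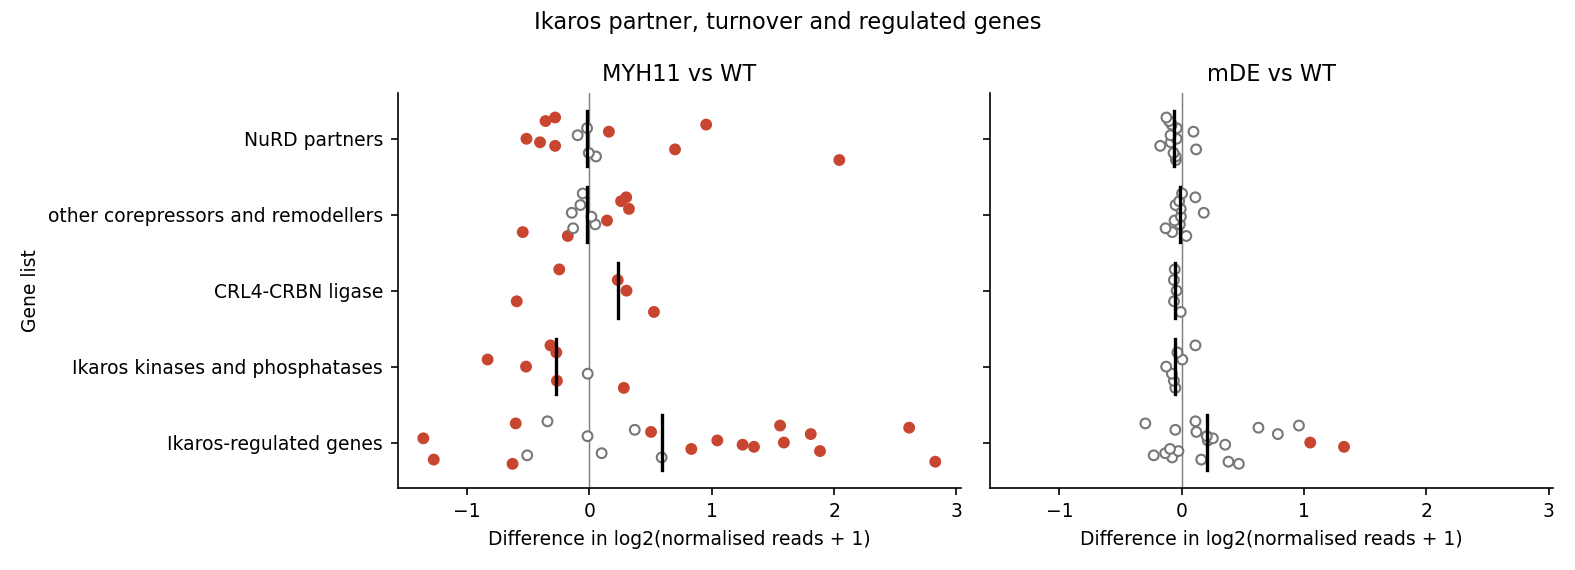
Differences in log2(normalised reads + 1) (x axis) of the tested genes of 5 lists (y axis) in MYH11 against WT and in mDE against WT, with filled points for genes at a limma adjusted p under 0.05, open points for the others and a black bar for the list's median. In MYH11 the Ikaros-regulated genes spread from -1.36 to 2.83, and in mDE 2 of them are filled.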

How the data were processed

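RNA-seq values of 9 libraries were used, grouped by the genotype in the sample titles. The authors deposited 1 signal value per gene and library, gene counts divided by a size factor, which is called normalised reads here. Per the submitters' processing notes, CASAVA 1.8.2, STAR 2.4, RSEM and DESeq2 were used with the build GRCm38; which tool did what is not given. The deposited log2 fold change and adjusted p-value columns name no comparison and were not used for any result. All values (100%) were whole multiples of the value of 1 read in that library within a relative tolerance of 1e-06, so reads were recovered (39300366 to 50073097 per library). Symbols were matched for 42462 of 43629 identifiers.

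filterByExpr (edgeR 4.0.16) on recovered reads kept 15948 genes. limma-trend (limma 3.58.1, R 4.3.3) was fitted to log2(value + 1) of all 9 libraries with genotype as the only term (6 residual and 3.2 prior degrees of freedom), two-sided, Benjamini-Hochberg adjusted over all of these genes, at a threshold of 0.05. Replicate libraries differed beyond counting noise (chi-square over genes). Alternatives were 12 settings of scaling, pseudocount, filter, test and design, DESeq2 1.42.0 among them, and leaving out each of 9 libraries. The edgeR test called 188 genes in mDE against WT. Lengths and coordinates are from GENCODE M21. Named genes outside the family were up to 3 called members of each partner or regulated list with the smallest adjusted p, the 3 genes closest to each member that changed at least 2-fold, and genes overlapping a member. Cbfb, Myh11, Runx1 and Kit were named as checks, and the most abundant gene of each marker list was named. Chd4, Ppp1ca, Siglech, Cox6a2, Tpsab1, Gp6, Trps1, Ms4a1, Blk, Cr2, Fcer2a, Cd22 and Ebf1 were named outside these rules. Members and lists were chosen with earlier results of these data known. Counting intervals and floors (3 reads) cover counting error only.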

Additional observations from a re-analysis of the deposited data

How the results depend on the processing

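The MYH11 calls of Ikzf1, Ikzf2, Ikzf3 and Ikzf4 against WT, and of Ikzf1, Ikzf2 and Ikzf4 against mDE, held in all 21 alternatives, and no member was called in mDE against WT in any. Ikzf4, mDE against WT, gave no value when only these groups were fitted, as it then failed the filter.

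Ikzf5, MYH11 against WT, was not called with TMM (log2 difference 0.10), DESeq2 (0.12) or upper-quartile scaling (0.0547), with no filter on low counts (0.15), or with edgeR (0.13), DESeq2 (0.13) or limma-voom (0.13) on recovered reads; leaving out 1 library gave 0.12 to 0.17. Against mDE it was not called with TMM (0.12), DESeq2 (0.12) or upper-quartile scaling (0.0838), no filter (0.14), the DESeq2 test (0.13) or only these groups fitted (0.14); leaving out 1 library gave 0.13 to 0.17. Ikzf5, mDE against WT, turned negative with TMM (-0.0202) and upper-quartile scaling (-0.0291), edgeR (-0.0151) and limma-voom (-0.0138), and leaving out 1 library gave -0.025 (WT replicate 2) to 0.0273, with -0.0169 without mDE replicate 1. Ikzf3, MYH11 against mDE, was called with TMM (-0.61), DESeq2 (-0.60) and upper-quartile scaling (-0.64), the 5 CPM filter (-0.58), the DESeq2 test (-0.55) and the replicate block (-0.58); leaving out 1 library gave -0.86 to -0.44. The cause was not tested.

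Genes called in mDE against WT numbered 198, and 123 with the 5 CPM filter, 944 with the DESeq2 test, 123 with only these groups fitted and 32 to 262 when 1 library was left out. Of the called genes 131 were higher and 67 lower, and 110 and 89 with upper-quartile scaling. With the replicate number as a block, 101 genes were called. Correlations of the deviations from the group means were -0.15 to 0.12 for same-numbered libraries and -0.18 to 0.21 for the others. They gave no sign of pairing by number, and a weak pairing cannot be seen with so few libraries. Without length scaling, the difference of MYH11 from WT in the share of the family was -17.7 percentage points for Ikzf1 and 13.7 for Ikzf2, and of mDE from WT 0.326 for Ikzf2, against -12.6, 7.46 and 0.164 per kb. For Ikzf1, leaving out 1 library gave -14.0 to -11.2, and for Ikzf2 6.39 to 8.36 and 0.128 to 0.213. Depth limits Ikzf4, which had 2 to 9 reads in each WT and mDE library.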

Other observations

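Trps1, a GATA-type repressor whose C-terminal zinc fingers resemble those of the Ikaros family, was read after its values were seen. Its mean was 351 ± 15.4 normalised reads in WT (SD, n = 3), 516 ± 38.2 in mDE and 1741 ± 83.0 in MYH11. It rose in both knock-in genotypes, with log2 differences from WT of 0.55 in mDE and 2.31 in MYH11 (limma adjusted p = 0.0168 and 9.97e-08). No member of the family was called in mDE.

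In the authors' deposited table, whose comparison is not named, the log2 fold changes are -2.22 for Ikzf2 and -3.03 for Ikzf4, with adjusted p of 2.64e-07 and 2.14e-07. For Ikzf1, Ikzf3 and Ikzf5 the authors' deposited table gives 0.23, 0.38 and -0.08, with adjusted p of 0.148, 0.244 and 0.257. Each deposited log2 fold change has the opposite sign to, and a smaller size than, the log2 difference of MYH11 from WT found here. For Ikzf1, Ikzf3 and Ikzf5 that difference had a limma adjusted p of 1.98e-05, 0.0035 and 0.0362, smaller than the deposited values. In mDE against WT, Ikzf2 was at 0.53 (limma adjusted p = 0.141). Which comparison was deposited, and the cause of the disagreement, was not tested.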
